A study of Mus musculus with 2 samples.

Results

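Type 2 dendritic cells that carried Cd209a RNA were picked out of CD45+ leukocytes sorted from B16-F10 melanomas. A kept cell belonged when it held at least 2 unique molecular identifiers (UMIs, each a single captured transcript) of Cd209a. It also needed at least 5 UMIs of the MHC class II genes H2-Aa, H2-Ab1 and Cd74 together. Left out were cells with more than 1 UMI of the type 1 dendritic genes Xcr1 and Clec9a, cells with both Ccr7 and Fscn1 (mature dendritic cells), cells with any Cd3 or Cd79a UMI, and cells with more than 1 UMI of C1qa plus C1qb (macrophages). These limits chose 283 of the 18539 kept cells, 225 in the Control library and 58 in the DOPAC library. Levels of the rule's own genes are therefore descriptions and support nothing.

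The mice carried B16-F10, a mouse melanoma line, were wild type by label, and received vehicle (Control) or DOPAC, a breakdown product of dopamine. Dose, duration, strain, sex and age are not given in the sources used here. The design text gives 4 mice in each group, but each group is 1 library with no tag that assigns cells to mice, so cells were not treated as replicates and no difference below has a replicate check. Tumors are named as the tissue by the label and by the design, although the extraction text speaks of colon. The cell type label says lymphocyte although the sort was on CD45.

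Dendritic cells take up antigen, cut it into peptides and show these on MHC molecules to T cells. Type 2 conventional dendritic cells present mainly on MHC class II to CD4 T cells, while type 1 cells are specialised in showing taken-up antigen to CD8 T cells. CD209a belongs to the DC-SIGN family of C-type lectins, which bind sugars on microbes and cells, and in the mouse it also appears on dendritic cells that arise from monocytes. Interferons reshape all these cells, raising antigen processing and the chemokines that draw T cells.

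The 6 marker genes set out for this cell type were found in the summed RNA of both libraries. Levels are the summed UMIs scaled to a common library total (CPM) and are given with exact Poisson 95% intervals, which cover counting error only and neither cell-to-cell nor mouse-to-mouse spread. Cd209a, which the rule used, stood at 795 CPM in Control and 909 CPM in DOPAC members. Clec10a, a lectin for galactose-type sugars, stood at 307 CPM (288 to 327) in Control and 198 CPM (151 to 254) in DOPAC members. Its near copy Mgl2 stood at 237 and 138 CPM. In the T-cell gate (at least 2 Cd3 UMIs and none of Cd79a or Lyz2), whose cells should lack both genes, though the Lyz2 limit also leaves out T cells with RNA of other cells and so can understate this background, more so in Control, Clec10a stood at 5.63 and 2.75 CPM and Mgl2 at 2.01 and 0.96 CPM. The other dendritic and monocyte gates, too, lay below the members for both lectins in both libraries, as the plot of markers by gate shows.

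The remaining markers were less restricted to these cells. Ifitm1, an interferon-induced membrane protein, stood at 1364 CPM in Control and 1410 CPM in DOPAC members, a ratio of 1.03 (0.934 to 1.14). Rtn1, a protein of the endoplasmic reticulum, stood at 108 and 59.3 CPM in the members and at 99.1 and 88.7 CPM in mature dendritic cells, so that it did not set the 2 gates apart. H2-DMb2, a chain of the class II peptide exchanger, stood at 237 and 92.3 CPM in the members and at 180 and 88.7 CPM in mature dendritic cells. In the DOPAC library the intervals of the members and the mature cells overlapped for both genes. In summed RNA, Clec10a, Mgl2 and Ifitm1 thus set the members apart from the other gates in both libraries, as a description. The rule did not use these markers, and they did not mark every member. Clec10a was found in 164 of 225 Control and 29 of 58 DOPAC members, and Ifitm1 in 173 and 40. Mgl2 was found in 71 and 7, and 1 DOPAC cell held 40.5% of its DOPAC UMIs.

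**Figure D1:**
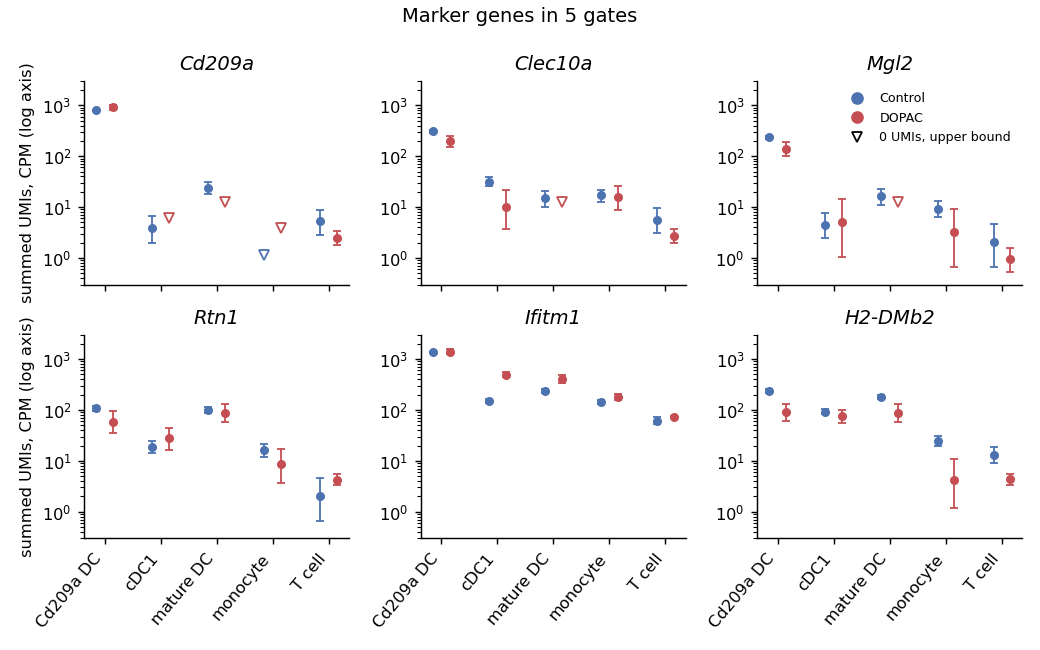
CPM of summed UMIs (log axis) of the 6 marker genes in the Cd209a dendritic cells and 4 other gates, blue for Control and red for DOPAC, with exact Poisson 95% intervals. Open triangles mark 0 UMIs at the upper bound. Clec10a and Mgl2 are highest in the Cd209a dendritic cells of both libraries, whereas Rtn1 is as high in mature dendritic cells.

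Genes most concentrated in the members, relative to all other kept cells of the same library, were led by the Cd209 family. Since the members were chosen by Cd209a, this ranking is a description. Cd209c stood at 20.9 CPM in Control members against 2.02 CPM elsewhere, and Cd209d at 86 against 11.5 CPM. The family's genes are near copies, as are Clec10a and Mgl2, so reads could have been assigned between them. Further down the ranking came Il1r2, the decoy receptor for interleukin 1, at 797 CPM in Control and 428 CPM in DOPAC members. Ffar2, a receptor for short-chain fatty acids, stood at 21.9 and 29.7 CPM. Napsa, an aspartic protease, stood at 675 and 316 CPM, and Tnip3, an inhibitor of NF-kappa-B signalling, at 725 and 890 CPM. Cd300a, an inhibitory receptor, stood at 284 and 155 CPM.

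The Cd209a threshold cut through a gradient. Members held a median of 8 Cd209a UMIs in Control, with a highest cell of 48, and a median of 4 in DOPAC, with a highest cell of 14. Just inside the threshold, at exactly 2 UMIs, were 33 Control and 20 DOPAC cells, with Mgl2 at 84.6 and 96.6 CPM and Clec10a at 156 and 58 CPM. Just outside it, at 1 UMI with all other limits met, were 99 Control and 34 DOPAC cells, with Mgl2 at 50.2 and 19.3 CPM and Clec10a at 108 and 167 CPM. Control members with at least 8 Cd209a UMIs reached 336 CPM of Mgl2 and 400 CPM of Clec10a.

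Depth differed between the libraries. Members held a median of 13450 UMIs per cell in Control and 4510 in DOPAC, and their sums came to 3199388 and 303470 UMIs. The libraries shared 32 barcodes, none of them a member. Among cells with at least 2 Cd3 UMIs, 55% in Control and 19% in DOPAC also held a C1qa or C1qb UMI, and 80.3% and 40.1% a Lyz2 UMI. The parts of free RNA, doublets and depth in these shares were not tested. The limits of the rule removed different shares of cells. Of the cells with at least 2 Cd209a UMIs, the C1q limit failed 209 of 543 in Control and 6 of 111 in DOPAC, and the Cd3 limit failed 149 and 48.

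Cd209a dendritic cells made up a smaller share of the DOPAC library. They were 2.66% of the kept Control cells (225 of 8444, 2.33 to 3.03%, exact Clopper-Pearson 95% interval) and 0.575% of the kept DOPAC cells (58 of 10095, 0.437 to 0.742%). The difference was -2.09 percentage points (-2.48 to -1.73, Newcombe 95% interval). With every cell thinned to 2000 UMIs before the rule was applied, 161 of 8189 Control cells (1.97%) and 35 of 8303 DOPAC cells (0.422%) belonged. T cells took a larger part of the DOPAC library, so the share was also taken of cells without any Cd3, Ncr1 or Nkg7 UMI, where it came to 4.93% (195 of 3954) and 2.33% (43 of 1842).

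Other dendritic cells were scarcer in the DOPAC library as well. The other dendritic gates met the same Cd3, Cd79a and C1q limits, and took cells with at least 2 Xcr1 plus Clec9a UMIs (type 1) or with both Ccr7 and Fscn1 (mature). The monocyte gate needed at least 2 UMIs each of Ly6c2 and Lyz2. The type 1 gate held 2.10% and 0.763% of kept cells, and the mature gate 1.82% and 0.604%. The monocyte gate held 3.43% and 2.29%. Of the cells in the 3 dendritic gates together, Cd209a dendritic cells made up 40.5% (225 of 556, 36.4 to 44.7%) in Control and 29.6% (58 of 196, 23.3 to 36.5%) in DOPAC. The difference was -10.9 points (-18.1 to -3.04). The part of the unequal depth and limits in it was not tested.

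**Figure D2:**
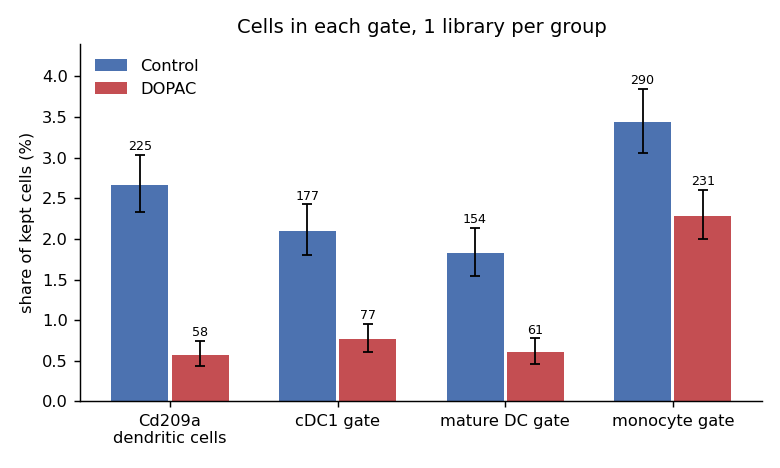
Share of kept cells (%) in 4 gates, blue bars for the Control library and red bars for the DOPAC library, with exact 95% binomial intervals and the number of cells above each bar. The bars for the Cd209a dendritic cells stand at 2.66% and 0.575%, and each of the other gates is lower in DOPAC too.

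Part of the Control members carried the genes of plasmacytoid dendritic cells, the interferon-producing relatives of conventional dendritic cells. Siglech, Ccr9, Klk1, Cox6a2 and Ly6d together reached at least 5 UMIs in 22 of 225 Control members (9.78%, 6.23 to 14.4%), with a median of 40 UMIs and a highest cell of 119. In DOPAC, 0 of 58 members did (0 to 6.16% by the same exact interval), and the highest member held 2. Between 5 and 11 UMIs lay 1 Control cell, and the other 21 carriers held 12 or more. Carriers had few Cd209a transcripts, at a median of 2 UMIs against 10 in the other Control members. Plasmacytoid RNA was not particular to the members. The list of 8 plasmacytoid genes summed to 1568 CPM in Control and 600 CPM in DOPAC members. In the type 1 gate it summed to 3018 and 686 CPM, and all 8 genes were lower in DOPAC. Carriers were not counted in, or left out of, that gate.

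The carriers stood below the other Control members in each of the 6 markers. Clec10a differed least, at 208 CPM in the carriers and 316 CPM in the rest. Mgl2 stood at 3.99 CPM in the carriers and 257 CPM in the rest, Ifitm1 at 55.9 and 1475 CPM, and Cd74 at 3129 and 16929 CPM. Tcf4, the transcription factor that sets plasmacytoid identity, stood at 4578 and 363 CPM. Cd209d, at 295 and 68.2 CPM, was higher in the carriers. Because the carriers were found in 1 library, values without them are given beside several comparisons below, an alternative chosen after the data were seen.

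**Figure D3:**
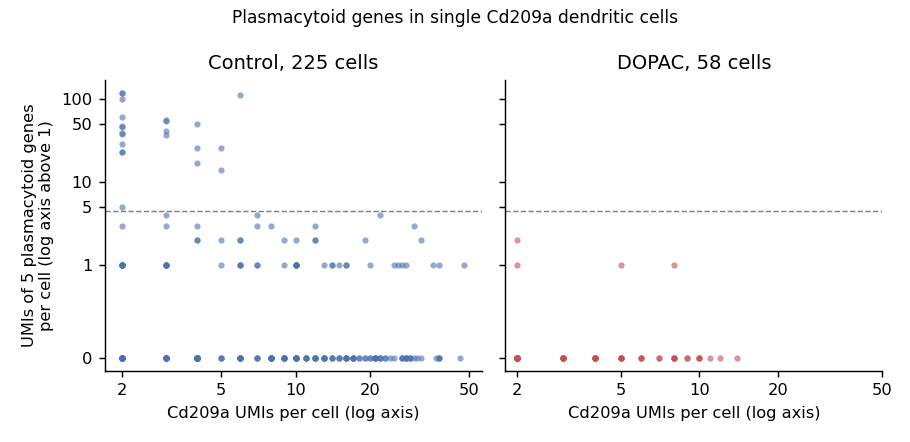
Each point is 1 Cd209a dendritic cell, with its Cd209a UMIs (log axis) against its summed UMIs of Siglech, Ccr9, Klk1, Cox6a2 and Ly6d (log axis above 1). The dashed line separates the 22 Control cells with at least 5 such UMIs, all at 6 or fewer Cd209a UMIs, from the rest. No DOPAC cell lies above it.

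The comparison of DOPAC with Control members asked how these cells' RNA differed after treatment. It covered the 8467 genes whose UMIs in the 2 sums added up to 20 or more. A gene was counted as higher or lower when its CPM differed at least 1.5-fold after 1 count was added to each sum, with no test. Of all genes, 1741 (20.6%) were higher and 1584 (18.7%) lower in DOPAC, and the median log2 ratio was 0.02. Without the carriers these shares were 20.6% and 17%. Among genes with 100 UMIs or more they were 12.6% and 16.7%. With 0.5 counts added in place of 1 they were 17.5% and 23.4%. The counts of each list below are to be read against these shares. Because the DOPAC sum is the smaller, the added count moves genes with few UMIs toward higher in DOPAC. Such a gene can be counted as higher although its CPM ratio is below 1.5-fold, in the lists as well. In the type 1 gate 15.2% of genes were higher and 19.7% lower, and over all genes the median log2 ratios of the 4 other gates lay between -0.07 and 0.03.

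Genes of the interferon response were higher in the DOPAC members. Of 28 measured antiviral genes of the type I interferon response, 19 were higher and 2 lower, against 20.6% and 18.7% of all genes, with a median log2 ratio of 0.86. Without the carriers the counts were the same and the median was 0.81. Of 25 measured genes of the interferon gamma response, 17 were higher and 1 lower, with a median of 0.90. Without the carriers 17 were higher and 3 lower. In the type 1 gate the medians of these lists were 0.82 and 0.53, in mature dendritic cells 0.38 and 0.53, in the monocyte gate 0.79 and 1.06, and in the T-cell gate 0.02 and 0.15.

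The promoters of these genes show which interferon elements stand before their starts. Sequences of the 250 bases before each start were taken from RefSeq on GRCm38.p6. Searched on both strands were the interferon-stimulated response element (ISRE, written GAAA, then 2 bases of any kind, then GAAA), known from type I interferon targets, and the gamma-activated site (GAS, TTCNNNGAA), known from interferon gamma targets. Capitals mark every match, and neighbouring matches can overlap. The windows are Irgm1 on the minus strand of chr11:48871421-48871670, Gbp5 on the plus strand of chr3:142496684-142496933, and Ifit1 on the plus strand of chr19:34640639-34640888, shown because all were higher in DOPAC members and hold a match.
Irgm1: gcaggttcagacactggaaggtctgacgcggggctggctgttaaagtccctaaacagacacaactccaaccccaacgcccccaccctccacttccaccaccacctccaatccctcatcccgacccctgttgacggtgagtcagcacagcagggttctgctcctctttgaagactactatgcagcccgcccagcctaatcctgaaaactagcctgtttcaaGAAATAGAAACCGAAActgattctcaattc
Gbp5: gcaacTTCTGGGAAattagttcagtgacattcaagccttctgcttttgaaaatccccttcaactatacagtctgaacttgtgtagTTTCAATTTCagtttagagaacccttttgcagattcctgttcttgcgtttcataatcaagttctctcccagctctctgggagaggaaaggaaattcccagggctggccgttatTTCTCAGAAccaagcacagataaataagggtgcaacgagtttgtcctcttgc
Ifit1: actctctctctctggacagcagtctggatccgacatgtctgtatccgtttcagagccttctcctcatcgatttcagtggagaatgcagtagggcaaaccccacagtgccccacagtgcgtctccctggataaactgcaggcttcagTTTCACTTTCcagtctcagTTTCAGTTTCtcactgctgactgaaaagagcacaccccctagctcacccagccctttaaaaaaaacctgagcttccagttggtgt
Irgm1 held 2 overlapping ISRE matches that began 30 and 24 bases before the start. Ifit1 held 2 at 104 and 85 bases, and Gbp5 held 1 ISRE match at 165 bases and GAS matches at 245 and 52 bases. An ISRE match was found for 12 of the 23 measured type I genes with a window and for 9 of 20 interferon gamma genes. Among those higher in DOPAC it was 6 of 15 and 9 of 13. Over all genes it was 936 of 27025 (3.46%), and over genes measured in the members 254 of 6737 (3.77%). A GAS match was found for 3 of 23 and 8 of 20, against 2197 of 27025 (8.13%) and 483 of 6737 (7.17%). A match describes these letters and is not a shown binding site.

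Cxcl9, the chemokine that draws CXCR3-bearing T cells (chr5:92321347-92328079, minus strand, GRCm38), stood at 234 CPM in Control and 1183 CPM in DOPAC members, a ratio of 5.06 (4.45 to 5.75). Its UMIs were concentrated in few cells. Control members held between 0 and 197 with a median of 0, and 1 cell held 26.3% of them. Without the highest cell of each library the ratio was 5.87. At 2000 UMIs per cell, 22 of 224 Control members (9.82%) and 20 of 57 DOPAC members (35.1%) held a Cxcl9 UMI, against 1.05% and 5.34% of T-gate cells. Unthinned, these shares were 18.7% and 41.4% of members, at median depths of 13450 and 4510 UMIs, and 4.91% and 9.57% of T-gate cells, at 5882 and 4048.

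Cxcl9 was also higher in DOPAC in each of the other gates. It stood at 269 and 825 CPM in the type 1 gate, 76.3 and 338 CPM in mature dendritic cells, 480 and 1501 CPM in monocytes, and 7.65 and 64.5 CPM in T cells. Cxcl10, a ligand of the same receptor, stood at 634 and 1117 CPM in the members, a ratio of 1.76 (1.57 to 1.98).

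Several genes of the interferon gamma list code for guanylate-binding proteins and immunity-related GTPases, which attack pathogen vacuoles. Irgm1, a regulatory GTPase of this family, stood at 27.2 and 92.3 CPM, a ratio of 3.39 (2.13 to 5.25). Iigp1 stood at 10.6 and 62.6 CPM, and was found in 15 of 225 Control and 7 of 58 DOPAC members. Gbp5 stood at 43.1 and 105 CPM, Gbp4 at 16.6 and 52.7 CPM, and Gbp2 at 97.2 and 191 CPM. Gbp6, with 17 and 0 UMIs, and Gbp2b, at 0 in both libraries, were too low to be measured. Near copies within both families share reads, so the split between single genes is uncertain.

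The factors that carry the signal differed less. Irf1, an interferon-induced transcription factor, stood at 107 and 198 CPM, a ratio of 1.85 (1.38 to 2.44). Stat2 stood at 74.4 and 142 CPM. The receptor chains Ifngr1 and Ifngr2 were within 1.5-fold, with log2 ratios of -0.33 and -0.21, as was the kinase gene Jak2 at -0.58. Socs3, a feedback inhibitor of cytokine signalling, was the list's lower gene at 113 and 56 CPM.

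Within the type I list, among genes with at least 50 UMIs, 4 effector and sensor genes had the largest ratios. Xaf1, a pro-apoptotic interferon target, stood at 42.2 and 132 CPM, a ratio of 3.12 (2.14 to 4.47). Oasl2, of the oligoadenylate synthetase family, stood at 84.4 and 241 CPM, and Ifi209, a DNA-sensor family member, at 77.8 and 214 CPM. Ifit1, which binds foreign RNA caps, stood at 56.6 and 152 CPM. Ifitm3, by far the most abundant of the list, stood at 2958 and 4824 CPM. At 2000 UMIs per cell, Oasl2 was found in 15.6% of Control and 38.6% of DOPAC members, against 3.14% and 2.95% of T-gate cells, and unthinned in 44.4% and 51.7%, against 6.98% and 5.75%.

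Not all of the list followed. Isg15, a ubiquitin-like modifier, stood at 341 and 432 CPM, a ratio of 1.26 (1.05 to 1.52), and Irf7, the factor that amplifies type I interferon, at 123 and 112 CPM. Bst2, an antiviral tether, was at 479 and 349 CPM with the carriers, which alone held 2419 CPM. Leaving them out moved its log2 ratio from -0.44 to 0.16. Ifit3 and its near copy Ifit3b were the lower pair, on 6 and 1 DOPAC UMIs, with intervals of the ratio that included 1.

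**Figure D4:**
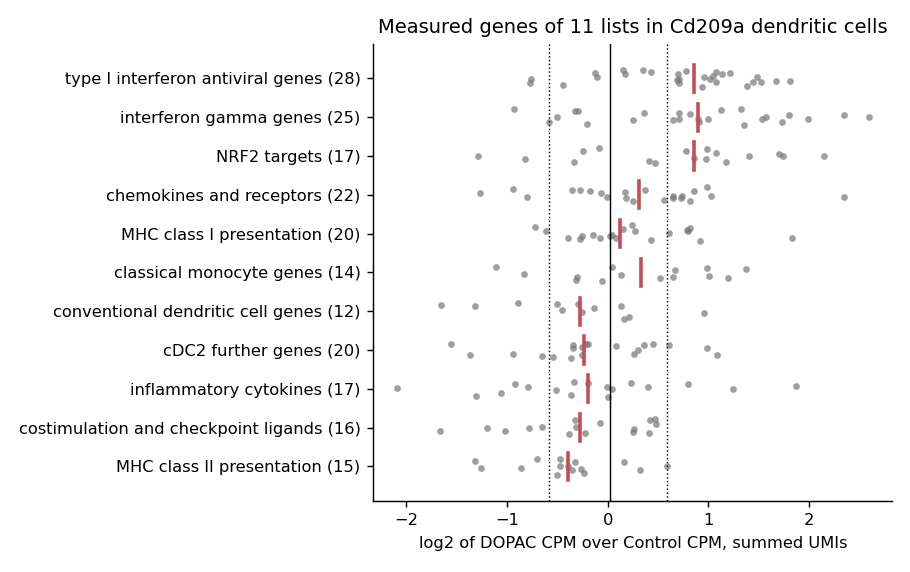
Log2 ratio of DOPAC over Control CPM for each measured gene (grey points) of 11 lists in the Cd209a dendritic cells, with the number of genes in brackets and the list median as a red bar. The solid line is the median of all genes and dotted lines mark 1.5-fold. The medians of both interferon lists and of the NRF2 targets lie between 0.85 and 0.90, and that of class II presentation at -0.39.

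Antioxidant genes formed a second group that stood higher. NRF2 is the transcription factor that switches on enzymes of glutathione and thioredoxin chemistry under oxidative or electrophilic stress. Of 17 measured NRF2 targets, 10 were higher and 2 lower in DOPAC members, with a median log2 ratio of 0.85, and the counts were the same without the carriers. With the cells thinned before the rule the median was 0.26, and with Clec10a plus Mgl2 in place of Cd209a it was 0.44. The latter rule took 302 Control and 62 DOPAC cells, of which 150 and 17 were members. Here and below, that setting thus describes mostly other cells in DOPAC. In other gates the list's median was 0.53 in the type 1 gate, 0.43 in mature dendritic cells, 0.32 in monocytes and 0.05 in T cells. Whether the members differ from these gates was not tested.

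The promoter of Prdx1 is shown because Prdx1 was the most abundant target among those higher in DOPAC members and its window holds the antioxidant response element core (ARE, TGACNNNGC, searched on both strands and marked in capitals). The window is the plus strand of chr4:116685349-116685598.
Prdx1: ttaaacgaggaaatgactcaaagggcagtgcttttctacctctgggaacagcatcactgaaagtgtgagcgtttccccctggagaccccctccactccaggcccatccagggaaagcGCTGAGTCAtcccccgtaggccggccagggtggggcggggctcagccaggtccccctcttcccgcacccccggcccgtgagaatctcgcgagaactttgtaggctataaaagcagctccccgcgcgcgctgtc
The match began 133 bases before the start. Of the 13 measured NRF2 targets with a window, 4 held a match. Over all genes it was 3112 of 27025 (11.5%), and over genes measured in the members 978 of 6737 (14.5%).

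Several targets act on protein thiols and glutathione. Srxn1, sulfiredoxin, which repairs overoxidised peroxiredoxins (chr2:152105516-152111376, plus strand, GRCm38), stood at 15.3 CPM in Control and 65.9 CPM in DOPAC members, a ratio of 4.30 (2.42 to 7.37) on 49 and 20 UMIs. Gsr, glutathione reductase, stood at 50 and 165 CPM, a ratio of 3.29 (2.35 to 4.55). Prdx1, a peroxiredoxin, stood at 351 and 791 CPM. Txnrd1 and Txn1, thioredoxin reductase and thioredoxin, were within 1.5-fold at 278 and 382 CPM and at 252 and 333 CPM. At 2000 UMIs per cell, Gsr was found in 7.59% of Control and 24.6% of DOPAC members, against 4.19% and 6.86% of T-gate cells, and unthinned in 38.7% and 32.8%, against 14% and 15.8%.

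Genes that supply glutathione included higher ones. Slc7a11, the cystine importer, stood at 207 and 544 CPM, a ratio of 2.63 (2.20 to 3.12), and Gclc, the catalytic subunit that starts glutathione synthesis, at 42.8 and 82.4 CPM. Hmox1, heme oxygenase, stood at 39.4 and 125 CPM, a ratio of 3.18 (2.15 to 4.60). With the cells thinned before the rule, Hmox1 turned to a log2 ratio of -0.46, and with Clec10a plus Mgl2 in place of Cd209a to -0.18, so its direction rests on the rule used. Nqo1, a standard NRF2 target, had 6 and 2 UMIs and was too low to compare.

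The opposite direction was seen for Tkt, transketolase, at 290 and 115 CPM, a ratio of Control over DOPAC of 2.51 (1.80 to 3.63). Fth1, the ferritin heavy chain, stood at 6318 and 5928 CPM. The gene of NRF2 itself, Nfe2l2, stood at 269 and 280 CPM, and its inhibitor Keap1 had 30 and 5 UMIs. Of the 9 regulators of the pathway, 3 were higher, among them Bach1, a repressor of NRF2 targets, at 198 and 405 CPM.

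Genes of MHC class II presentation were lower or within 1.5-fold. Of 15 measured genes 0 were higher and 4 lower, against 20.6% and 18.7% of all genes, and 5 were lower without the carriers. The median log2 ratio was -0.39. Cd74, the invariant chain, which the rule used, stood at 15848 and 9751 CPM, and H2-Ab1 and H2-Aa, also of the rule, at log2 ratios of -0.48 and -0.39. H2-Eb1, a class II chain that the rule did not use, stood at 5565 and 4732 CPM, a ratio of Control over DOPAC of 1.18 (1.11 to 1.24).

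The genes of peptide loading were mixed. H2-DMb1 and H2-DMb2, the exchanger's beta chains, stood at 872 and 478 CPM and at 237 and 92.3 CPM, and as near copies they may share reads. H2-Oa, a chain of the molecule that restrains the exchanger, stood at 118 and 46.1 CPM, a ratio of Control over DOPAC of 2.55 (1.5 to 4.70). H2-DMa, the exchanger's alpha chain, stood at 840 and 652 CPM, a ratio of 1.29, and H2-Ob, the partner of H2-Oa, at 61.3 and 89 CPM, higher in DOPAC but within 1.5-fold. Ciita, the master regulator of class II genes, stood at 135 and 92.3 CPM, within 1.5-fold. The list's median was -0.15 in the type 1 gate, -0.73 in mature dendritic cells, -0.05 in monocytes and -0.83 in T cells. With Clec10a plus Mgl2 in place of Cd209a it was 0.03 in the cells so chosen.

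MHC class I genes showed no common direction. Of 20 measured genes 6 were higher and 2 lower. Nlrc5, the activator of class I genes, stood at 78.5 and 277 CPM, a ratio of 3.53 (2.72 to 4.53), and B2m, the shared light chain, at 1632 and 2837 CPM. The heavy chains H2-K1 and H2-D1 stood at 981 and 926 CPM and at 1168 and 1051 CPM. At 2000 UMIs per cell Nlrc5 was found in 13.8% and 40.4% of members, and in 27.2% and 41.3% of T-gate cells, which express it themselves. Unthinned the shares were 52.4% and 62.1%, and 58.9% and 63.4%.

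Costimulatory genes were lower or within 1.5-fold. Of 16 measured genes 0 were higher and 5 lower, against 20.6% and 18.7% of all genes. The counts were the same without the carriers, and the median log2 ratio was -0.27. With Clec10a plus Mgl2 in place of Cd209a that median was 0.17, and with at least 1 Cd209a UMI it was -0.01. Cd83, a maturation marker that steadies surface class II, stood at 798 and 392 CPM, a ratio of Control over DOPAC of 2.04 (1.69 to 2.47). Tnfsf9, the ligand of 4-1BB, stood at 256 and 109 CPM, and Cd80, which engages CD28 and CTLA-4, at 255 and 145 CPM. Tnfsf4, the ligand of OX40, rested on 133 and 3 UMIs, a ratio of 4.21 (1.41 to 20.6). Cd86 stood at 1410 and 1078 CPM, and Cd274, which codes for PD-L1, at 321 and 379 CPM.

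The share of members with a Cd83 UMI at 2000 UMIs per cell was 71.4% in Control and 43.9% in DOPAC, against 5.50% and 5.23% of T-gate cells, and unthinned 94.2% and 81%, against 19.9% and 9.79%. Cd83 was lower in DOPAC in the other gates too, at 643 and 441 CPM in the type 1 gate and 900 and 576 CPM in mature dendritic cells. Of the other genes of mature cells, Ccr7, the receptor that guides migration to lymph nodes and on which the rule set a limit, stood at 126 and 49.4 CPM in the members. The list of mature markers had 1 of 10 higher and 2 lower.

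**Figure D5:**
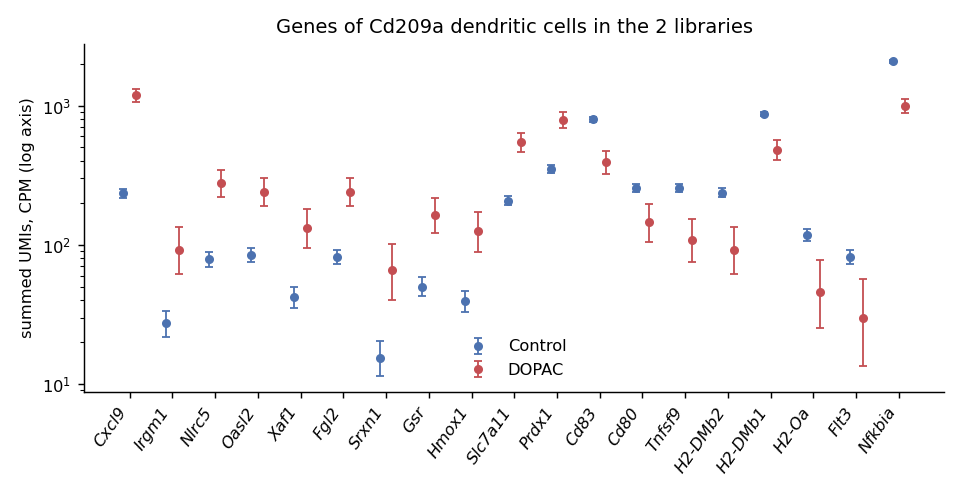
CPM of summed UMIs (log axis) of 19 genes in the Cd209a dendritic cells, blue for Control and red for DOPAC, with exact Poisson 95% intervals. The 6 interferon genes and 5 NRF2 targets on the left are higher in DOPAC, and the costimulatory, class II, Flt3 and Nfkbia values on the right are lower.

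Genes of conventional dendritic identity had 1 of 12 higher and 3 lower. Flt3, the growth factor receptor that dendritic cells depend on, stood at 81.9 and 29.7 CPM, a ratio of Control over DOPAC of 2.76 (1.43 to 6.11) on 262 and 9 UMIs. Zbtb46, a factor that marks conventional dendritic cells, stood at 115 and 59.3 CPM. Irf4, the factor of type 2 cells, stood at 71 and 52.7 CPM, and without the carriers its log2 ratio was -0.01. Id2 was the higher one at 144 and 277 CPM. Of 20 further type 2 genes 3 were higher and 4 lower, with Klf4, a factor of one type 2 lineage, at 71.3 and 148 CPM and Cd7 at 238 and 89 CPM.

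Monocyte genes were mixed. Of 14 measured, 6 were higher and 2 lower, with a median log2 ratio of 0.33, and 5 and 2 without the carriers. With at least 1 Cd209a UMI 3 were higher and 6 lower with a median of -0.31, without the Cd3 limit the median was -0.03, and with Clec10a plus Mgl2 in place of Cd209a it was -0.23. The direction of the list thus rests on the rule used. Ly6a stood at 337 and 873 CPM, Ms4a4c at 308 and 616 CPM, and Plac8 at 1066 and 2106 CPM. Ly6a and Plac8 were higher in DOPAC in T cells also, at log2 ratios of 1.71 and 2.10, and are interferon or activation genes in several leukocytes. Ly6c2, the classical monocyte marker, stood at 133 and 208 CPM, but at 71.6 CPM in the Control members without the carriers. Its log2 ratio turned to -0.25 with at least 1 Cd209a UMI and to -0.50 with Clec10a plus Mgl2 in place of Cd209a. Cd14 was lower, at 269 and 148 CPM, and Fcgr1, the Fc receptor of monocyte-derived dendritic cells, stood at 66.3 and 92.3 CPM.

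The summed monocyte list reached 2738 CPM in Control and 4732 CPM in DOPAC members with none of its 14 genes at 0. Cells with an Ly6c2, Fcgr1 or Cd14 UMI at 2000 UMIs per cell were 48.2% and 52.6% of the members. In T-gate cells, which themselves express Ly6c2, the shares were 40.3% and 48.9%. Unthinned they were 88% and 70.7% of members, and 61.5% and 65% of T-gate cells. Whether cells of monocyte origin took a different part in the 2 libraries was not tested.

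Chemokine genes had 9 of 22 higher and 3 lower, with a median log2 ratio of 0.31, and 7 and 3 without the carriers. With at least 1 Cd209a UMI the counts were 6 and 6 with a median of -0.36, and without the Cd3 limit 5 and 5. Beside Cxcl9 and Cxcl10, Ccl5 stood at 323 and 656 CPM, Cxcl2, which draws neutrophils, at 986 and 1542 CPM, and the receptor Ccr2 at 250 and 389 CPM. Ccl5 is abundant in T cells, where 68.6% and 94.1% of cells held a UMI at 2000 UMIs. The part of free RNA in the members' Ccl5 was not tested. It was found in 27.2% and 57.9% of members at that depth, and unthinned in 74.2% and 84.5%, against 79.6% and 96.9% of T-gate cells.

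Inflammatory cytokines and their feedback genes had 3 of 17 higher and 5 lower. Il1b, the members' leading cytokine, stood at 3203 and 2481 CPM, a ratio of Control over DOPAC of 1.29 (1.20 to 1.39), and Il1r2 was lower in DOPAC members as given above. Nfkbia, the feedback inhibitor of NF-kappa-B, stood at 2081 and 995 CPM. It was lower in each of the other gates as well, at log2 ratios between -0.80 and -1.20. Il15, which supports NK and CD8 T cells, stood at 15 and 52.7 CPM on 48 and 16 UMIs, and Ptgs2, the prostaglandin synthase, at 261 and 616 CPM. Tnf stood at 116 and 89 CPM. Il12a, a chain of interleukin 12, had 44 UMIs in 18 Control members and 0 in DOPAC, at least 1.39-fold lower against a floor of 3 counts over the class.

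Immediate-early genes split into 2 sides, with 8 of 22 higher and 6 lower. Egr1 stood at 93.5 and 287 CPM, a ratio of 3.07 (2.39 to 3.91), and Fos at 213 and 557 CPM, while Junb stood at 832 and 389 CPM, Jund at 619 and 280 CPM and Jun at 309 and 171 CPM. These genes respond to cell handling as well as to signals, and handling of the 2 libraries cannot be told apart from treatment. Heat shock genes had 6 of 15 higher and 2 lower, 4 and 2 without the carriers, and 0 and 3 with the cells thinned before the rule. Of Hspa1b, at 156 and 498 CPM, 1 DOPAC cell held 58.3% of the UMIs, and without each library's highest cell its ratio was 1.89.

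By the naming rule, the 15 genes with the highest ratio bounds among those with at least 50 UMIs included several that rested on single cells. Kazn, a cell-junction protein, stood at 8.13 and 89 CPM, but all 27 DOPAC UMIs came from 1 cell. Trmt2b, a tRNA methyltransferase, had 20 DOPAC UMIs, of which 18 were in 1 cell, and without each library's highest cell its ratio was 0.76. Ms4a4b and Ctla2a, both known from lymphocytes, had 45% and 40% of their DOPAC UMIs in 1 cell, and with the cells thinned before the rule Ctla2a turned to a log2 ratio of -0.12.

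Others of the 15 were spread over many members. Tex14, a kinase-like protein known from germ cells, stood at 50.9 and 231 CPM, a ratio of 4.53 (3.37 to 6.03), with UMIs in 94 of 225 Control and 25 of 58 DOPAC members. Its highest log2 ratio in another gate was 1.17, in mature dendritic cells. Samhd1, which depletes nucleotides and restricts viruses, stood at 423 and 1107 CPM in 200 and 49 members. Tmsb10, an actin-binding thymosin, stood at 2122 and 5832 CPM in 223 and 57 members. Tmsb10 was not particular to the members. In the type 1, mature, monocyte and T-cell gates its log2 ratios were 1.21, 0.81, 1.02 and 0.54, and those of Samhd1 were 1.21, 0.29, 0.64 and -0.58. Numb, an inhibitor of Notch signalling, stood at 28.1 and 115 CPM in 58 and 18 members, and Fbxo30, a ubiquitin ligase part, at 18.4 and 79.1 CPM in 41 and 15. Ccdc162 stood at 36.9 and 129 CPM, with a log2 ratio of 1.83 in the members and 3.43 in the type 1 gate. Iigp1, Hspa1b, Srxn1, Egr1 and Gsr, described above, complete the 15.

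Of the 15 genes at the other end, Siglech, Ccr9 and Cox6a2 were among the genes that defined the carriers. Siglech, a plasmacytoid receptor, stood at 121 and 6.59 CPM, Ccr9 at 96.3 and 9.89 CPM, Mctp2 at 220 and 26.4 CPM and Blnk at 291 and 52.7 CPM. Cox6a2 had 110 and 0 UMIs, at least 3.48-fold lower in DOPAC against a floor of 3 counts over the class, and stood at 391 CPM in the carriers and 4.07 CPM in the other Control members. For these 3 genes, leaving out the carriers lowers the Control level by construction. Without the carriers the log2 ratios of Siglech, Mctp2, Grm8, Ccr9, Cacna1e and Prkca came to values above 0, between 0.28 and 1.28. Those of Blnk, Tex2 and Tcf4 came to -0.43, -0.42 and -0.63. The added count raises ratios on few DOPAC UMIs, because the DOPAC sum is the smaller. Without that count and without the carriers, Siglech stayed lower in DOPAC at a ratio of 0.845. Ccr9 and Cacna1e stood at ratios of 1.04 and 1.08, and Prkca, Grm8 and Mctp2 at 1.31, 1.39 and 1.94. These ratios rest on 1 to 14 DOPAC UMIs.

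With 1 count added, the genes still lower without the carriers by at least 1.5-fold were Thbs1, Tbc1d4, Tyk2, Mrpl28, Arhgap32 and, near that limit, Tcf4. Arhgap32 had 95 and 0 UMIs, and its log2 ratio was -3.19 with the carriers and -1.93 without them. Both ratios of Arhgap32 rest on the added count, because DOPAC held 0 UMIs. Without the carriers no bound against 3 counts was taken for it, so a 1.5-fold lower level of Arhgap32 is not shown there. Thbs1, thrombospondin, stood at 95.3 and 13.2 CPM with a log2 ratio of -2.63 without the carriers, and 1 Control cell held 21.6% of its UMIs. Tbc1d4, a regulator of glucose transporter traffic, stood at 208 and 49.4 CPM, a ratio of Control over DOPAC of 4.21 (2.53 to 7.57), in 121 and 11 members. Tyk2, a kinase of the type I interferon receptor, had 100 UMIs in 73 Control members and 0 in DOPAC, at least 3.16-fold lower against 3 counts. Mrpl28, a mitochondrial ribosome protein, had 182 and 2 UMIs. In the type 1, mature, monocyte and T-cell gates the log2 ratios of Tyk2 were -0.82, 0.21, -0.19 and -0.36, and those of Mrpl28 were -0.33, -0.68, -0.17 and 0.66. Those of Thbs1 were -1.96, -0.60, -0.42 and -1.74, and those of Tbc1d4 were 0.07, -0.32, -2.94 and -0.35. Thbs1 stood at 49.1 and 14.8 CPM in T cells, and Tbc1d4 at 2208 and 1767 CPM in mature dendritic cells. The part of free RNA in these levels was not tested.

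Most genes of the metabolic and mitochondrial lists were within 1.5-fold. Nuclear genes of the respiratory chain had 5 of 41 higher and 2 lower, glycolysis 1 of 17 higher and 3 lower, hypoxia genes 0 of 14 higher and 3 lower, mitophagy genes 3 of 22 higher and 6 lower, and lysosome and lipid genes 3 of 19 higher and 6 lower. Proliferation genes had 1 of 21 higher and 6 lower, 0 and 9 without the carriers, and 9 and 1 without the Cd3 limit, and Mki67 stood at 47.2 and 42.8 CPM. Of lectins and pattern receptors 5 of 21 were higher and 3 lower, against 3 and 7 with at least 1 Cd209a UMI. Of 9 genes that divide type 2 cells into A and B forms 1 was higher and 3 lower, and Esam and Dtx1 were at 0 UMIs in both libraries. Of 2 measured metallothioneins Mt1 was higher.

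Genes for handling dopamine and related catechols were nearly absent from these cells. Of 18, 3 reached 20 UMIs, with 0 higher and 1 lower. The lower one was Aldh2, an aldehyde dehydrogenase, at 51.9 and 29.7 CPM, with an interval of the ratio that included 1. The dopamine receptor genes Drd1, Drd2, Drd3, Drd4 and Drd5 were at 0 UMIs in the members of both libraries, which allows up to 3 UMIs of 303470 in DOPAC.

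Genes of other cell types were low. T and NK cell genes summed to 81 CPM in Control and 198 CPM in DOPAC members, with Cd3d, Cd3e and Cd3g at 0 by rule and 3 of 4 measured genes higher. Macrophage genes summed to 846 and 613 CPM with 1 of 13 higher and 5 lower, with Apoe at 77.8 and 16.5 CPM. B cell genes summed to 107 and 42.8 CPM, melanoma genes to 79.7 and 171 CPM, neutrophil genes to 91 and 112 CPM, and type 1 dendritic genes to 486 and 442 CPM. Haemoglobin genes summed to 35 CPM in Control and 0 in DOPAC. The part of these cells' RNA in the differences above was not tested.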

How the data were processed

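The deposited values are raw counts, 1 per UMI, gene and barcode. The file headers name Cell Ranger 7.0.1, and GRCm38 is named per the submitters' processing notes. Kept barcodes held 500 UMIs or more from 200 genes or more, no more than 10% of them mitochondrial, and doublets were not removed. The cells and 34 gene lists were chosen with earlier results of these data known. UMIs were summed over members per library and given as CPM. Log2 ratios used 1 added count, and fold intervals were exact binomial. Named were the markers, the 15 genes in each direction whose interval bound nearest 1 lay farthest from it, among those with at least 50 UMIs (rule, mitochondrial, ribosomal, haemoglobin, predicted and library-wide genes barred), the 20 leading enriched genes, and from each list up to 4 extreme and its defining genes. With 1 library per group no test was made. Clec7a, Mx1 and Mx2 were not analysed here. The ratios and intervals were checked on simulated data. Gene coordinates came from GENCODE on GRCm38. Python 3.11.15, numpy 2.4.6, scipy 1.17.1, pandas 2.3.3, scanpy 1.11.5 and edgeR (for TMM scaling only) were used.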

Additional observations from a re-analysis of the deposited data

Results flagged for a closer look

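Opposite directions in the members and in another gate, each at least 1.5-fold with at least 50 UMIs in both, were found for 7 of the genes examined, and none of these differences was tested. Values are log2 ratios of DOPAC over Control. Prkca, a protein kinase C gene, had -1.93 in the members against 1.5 in mature dendritic cells and 1.23 in monocytes, and 0.47 in the members without carriers of plasmacytoid genes. Rtn1 had -0.80 in the members against 0.62 in the type 1 gate and 0.85 in the T-cell gate. Fos had 1.39 in the members against -0.75 in mature dendritic cells and -1.62 in T cells. Irf1 had 0.91 in the members against -1.01 in T cells, and Mrpl28 -2.53 against 0.66. Numb had 2.06 against -0.66. Kazn had 3.45 against -0.97, with all DOPAC members' UMIs in 1 cell.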

How the results depend on the processing

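No paired analysis was possible because each group is 1 library and both carry the replicate number 1, and for the same reason no library could be left out. Of the planned and added alternatives, leaving out carriers of plasmacytoid genes, the C1q limit or the Cd3 limit was chosen after seeing the data. The difference in the share of kept cells, -2.09 points, was -2.93 with at least 1 Cd209a UMI, -1.54 with cells thinned to 2000 UMIs before the rule, -2.96 with Clec10a plus Mgl2 in place of Cd209a, -3.33 without the C1q limit and -2.60 among cells without T and NK genes. Of the 302 Control and 62 DOPAC cells chosen with Clec10a plus Mgl2, 150 and 17 were members. The 1741 genes higher and 1584 lower became 638 and 517 with thinned cells, 548 and 730 at 100 UMIs or more, and 727 and 771 at a fold of 2. With no filter 7310 were higher and 1759 lower, which made 80.6% of the called genes higher, against 52.4% as reported. With 0.5 counts added, 1479 were higher and 1984 lower (42.7% higher). The DOPAC sum holds 303470 UMIs and the Control sum 3199388, and no alternative matched the depth of the sums.

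A turn of direction was counted only where the reported value was at least 1.5-fold. Of the list medians, 459 values moved by less than the limit set for them, 16 by more, and 1 turned by that count. Of the single genes' values, 943 moved by less, 144 by more, and 18 turned. Sign changes of smaller values are among those that moved by less or by more. The monocyte, chemokine, costimulatory and class II medians changed sign in this way in some settings. The plasmacytoid median came to 0.16 without the carriers, the class II median to 0.035 and the type I interferon median to 1.29 with Clec10a plus Mgl2. The plasmacytoid list holds the genes that defined the carriers, so its change without them was in part fixed by construction. With thinned cells the log2 ratios of Ctla2a (-0.12), Grm8 (0.62), Blnk (0.064), Cacna1e (1.20), Cox6a2 (1.20) and Hmox1 (-0.46) turned. Without the carriers those of Siglech (0.28), Mctp2 (1.09), Grm8 (1.28), Ccr9 (0.42), Cacna1e (0.62) and Prkca (0.47) turned, and without the Cd3 limit that of Prkca (0.020). With Clec10a plus Mgl2 those of Clec10a (0.24), Mgl2 (0.28), Hmox1 (-0.18) and Ly6c2 (-0.50) turned, and with at least 1 Cd209a UMI that of Ly6c2 (-0.25). These ratios include 1 added count, which raises ratios on few DOPAC UMIs because the DOPAC sum is the smaller. Unthinned, the DOPAC members held 0 UMIs of Cox6a2, 1 of Grm8, 2 each of Siglech and Cacna1e and 3 of Ccr9. Without the added count and the carriers, Siglech stayed lower in DOPAC, at a ratio of 0.845. The turns of Grm8, Cacna1e and Cox6a2 with thinned cells thus do not show a higher level in DOPAC. The cause was otherwise not tested.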
